A study of Mus musculus with 12 samples.

Results

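Levels of 9 cytokine genes that define the effector programmes of helper T cells, Csf2, Il3, Il4, Il5, Il13, Ifng, Il17a, Il17f and Il21, were read in Treg of the mouse. The genes were chosen by name as the signature cytokines of these programmes, and all 9 were found in both tables of expression values, among 16232 genes in vivo and 24421 genes in vitro. Treg are CD4 T cells that express the transcription factor Foxp3 and hold immune responses in check. The 12 libraries of polyadenylated RNA fall into 6 groups of 2, which are Kdm2b conditional knockout (cKO) and wild-type (WT) Treg in vivo, stimulated cKO and WT Treg in vitro, and unstimulated cKO and WT Treg in vitro. Every group has spleen and lymph nodes as its source. Kdm2b encodes a histone demethylase and subunit of the Polycomb complex PRC1.1. The Cre driver of the deletion, the age of the mice, the stimulus and its duration are not given in the labels. These do not say whether the replicates were separate animals or separate cultures, so every p-value refers to the spread between these libraries, part or all of which may be technical.

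Helper T cells are sorted by the cytokines they secrete. Th1 cells make interferon gamma, Th2 cells make IL-4, IL-5 and IL-13, Th17 cells make IL-17A and IL-17F, and follicular helper cells make IL-21. GM-CSF, the product of Csf2, and IL-3 act on myeloid cells and their precursors and come from activated cells of several subsets. The genes are nearly silent in resting T cells and are transcribed after the T cell receptor activates NFAT and AP-1 factors, while lineage factors such as T-bet and GATA3 decide which of them respond. Treg as a rule make little of these cytokines, but can acquire part of an effector programme in inflamed tissue.

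All levels are FPKM, fragments scaled to gene length and library size, as the authors deposited them. They are per length, so levels of different genes can be set side by side within a library. The FPKM of a library added up to 461753 to 475374 in vivo and 369720 to 438763 in vitro, and the read depth is unknown. The 6 Treg markers (Foxp3, Il2ra, Ctla4, Ikzf2, Cd4 and Cd3e) were each above 1 FPKM in every library. Foxp3 was at 71.5 and 82.6 FPKM in unstimulated cKO, against 194 and 189 in unstimulated WT. When stimulated it was at 237.6 and 267.5 in cKO, against 529 and 696 in WT. In vivo Foxp3 lay the other way, at 113.9 and 117.2 in cKO, against 106.6 and 105.8 in WT. In each culture condition 2 of the 6 were higher in cKO without overlap and 2 lower, Foxp3 and Ctla4. The higher ones were Il2ra and Ikzf2 when unstimulated and Ikzf2 and Cd4 when stimulated. In vivo 3 were higher without overlap (Foxp3, Il2ra and Ikzf2) and 2 lower (Ctla4 and Cd4). Of all tested genes 17.8% and 16.6% were so when unstimulated, 18.5% and 29.8% when stimulated, and 21.5% and 25.8% in vivo. By limma 0 of the 6 were called, and their part in the cytokine values was not tested. Both WT replicate 2 libraries in vitro stood apart, with 13273 genes listed at 0 when stimulated and 12379 when unstimulated, against 9102 to 9857 for the remaining cultures. Of the genes at 4 to 8 FPKM in stimulated WT replicate 1, 3.53% (60 of 1702) were listed at 0 in stimulated WT replicate 2. That share was 1.23% (21 of 1703) for the unstimulated WT pair read the same way and at most 0.239% for the other pairs and directions. Genes between 0 and 1 FPKM numbered 1058 in stimulated and 1722 in unstimulated WT replicate 2, against 3801 to 4461 in the remaining cultures. Whether a 0 in stimulated WT replicate 2 is a failed estimate or a silent gene was not tested. The fold changes of Il17a and Il17f rest on such a 0 and are given with and without this library. The share of FPKM from haemoglobin genes was 10.3% and 1.86% in stimulated cKO replicates 1 and 2, against 0.0812% and 0.548% in stimulated WT, and 11.6% and 1.33% in unstimulated cKO, against 0.00678% and 0.335% in unstimulated WT. Kdm2b itself was at 125 to 146 FPKM in cKO in vivo and 110 to 113 in WT in vivo, at 66.3 to 97.4 in cKO in vitro and 71.7 to 94.9 in WT in vitro. This summed value would miss the loss of a part of the transcript, so it checks no label.

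The Th2 cytokine genes share a locus. On chromosome 11 (GRCm38.p6, RefSeq), Il4 spans 53612460 to 53618665 and Il13 53631323 to 53634702, with 12.7 kb between them. Il5 lies at 53720794 to 53725103, beyond the DNA repair gene Rad50. Csf2 (54247270 to 54249899) and Il3 (54265085 to 54267279) follow 522.2 kb further on and are 15.2 kb apart. These 5 genes thus lie within 654.8 kb. Il17a (20730905 to 20734496) and Il17f (20777146 to 20785274) are neighbours on chromosome 1, separated by 42.6 kb. Il21 is on chromosome 3 (37222759 to 37232636) and Ifng on chromosome 10 (118441046 to 118445894).

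The promoters of the 4 genes of the cluster that had the higher levels after stimulation are shown, because NFAT, the factor through which the T cell receptor drives these genes, binds the core GGAAA. Each window runs from 250 bases before to 50 bases after the RefSeq start of the gene (GRCm38.p6), 5′ to 3′ on the strand of the gene, with matches to GGAAA on either strand in capitals (TTTCC where it lies on the other strand). The Csf2 window is chr11:54249850-54250149 on the minus strand, the Il4 window chr11:53618616-53618915 on the minus strand, the Il13 window chr11:53634653-53634952 on the minus strand and the Il5 window chr11:53720544-53720843 on the plus strand.
Csf2: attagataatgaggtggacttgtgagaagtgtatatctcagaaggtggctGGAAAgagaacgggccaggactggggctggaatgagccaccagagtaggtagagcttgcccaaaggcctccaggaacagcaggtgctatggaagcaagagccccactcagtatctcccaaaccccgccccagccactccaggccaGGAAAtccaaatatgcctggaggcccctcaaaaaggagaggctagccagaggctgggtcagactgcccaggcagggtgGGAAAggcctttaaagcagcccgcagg
Il4: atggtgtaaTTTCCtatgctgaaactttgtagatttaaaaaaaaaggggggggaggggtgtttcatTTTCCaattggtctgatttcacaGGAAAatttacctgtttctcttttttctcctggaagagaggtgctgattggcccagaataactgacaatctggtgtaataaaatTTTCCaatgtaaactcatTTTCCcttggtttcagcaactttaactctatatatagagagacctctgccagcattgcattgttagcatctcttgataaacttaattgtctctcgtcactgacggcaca
Il13: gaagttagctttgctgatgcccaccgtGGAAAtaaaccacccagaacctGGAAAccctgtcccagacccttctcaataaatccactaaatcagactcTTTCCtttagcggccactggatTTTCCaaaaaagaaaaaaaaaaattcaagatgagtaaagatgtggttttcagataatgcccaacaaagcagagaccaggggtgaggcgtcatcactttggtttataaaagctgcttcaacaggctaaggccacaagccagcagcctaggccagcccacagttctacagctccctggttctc
Il5: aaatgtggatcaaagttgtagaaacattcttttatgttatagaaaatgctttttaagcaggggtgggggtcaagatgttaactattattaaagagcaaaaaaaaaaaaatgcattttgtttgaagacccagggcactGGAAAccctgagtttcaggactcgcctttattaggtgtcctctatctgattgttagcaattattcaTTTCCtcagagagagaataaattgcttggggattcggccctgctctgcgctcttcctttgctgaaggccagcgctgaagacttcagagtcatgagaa
Matches to GGAAA numbered 3 in the Csf2 window, 4 in the Il13 window, 2 in the Il5 window and 5 in the Il4 window. RefSeq gives Il4 a further start, whose window (chr11:53617289-53617588, minus strand) held 1. Over all members, 9 of 10 windows held GGAAA, against 61.3% of 32851 RefSeq promoter windows of the same length. Il17a was the member without a match. Its window was the only one of the 10 with TGANTCA, a loose form of the AP-1 motif that takes any base at N. The match reads TGAATCA, and 7.81% of all windows hold the loose form. The GATA motif AGATAA, searched on both strands like the others, was in the windows of Il13, Csf2 and Il3 and in 11.2% of all windows. A match is only a run of letters, and binding was not measured.

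KDM2B carries a CXXC zinc finger that binds unmethylated CpG dinucleotides and thereby brings PRC1.1 to CpG-rich promoters. The 10 member windows held between 1 and 7 CpG, against a median of 7 over all windows. The 2 Il4 windows were the poorest, with 1 and 2 CpG, where 14.1% and 23.3% of all windows have that many or fewer. Csf2 and Il13 had 3 each, Il5 and Il17f 4 each, Il21 5, Il3 and Il17a 6 each, and Ifng 7 (51.4% of windows at or under it). No binding or methylation data were used.

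**Figure D1:**
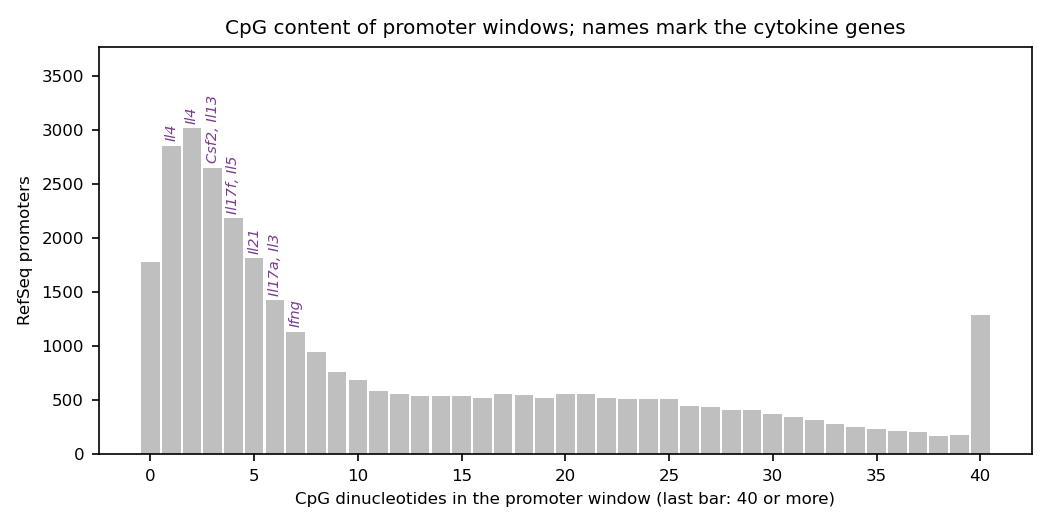
Number of RefSeq promoter windows (y axis) by the number of CpG dinucleotides in the window (x axis, last bar 40 or more), with the names of the cytokine genes written over the bar they fall in. All 10 windows of the 9 cytokine genes lie at 7 CpG or fewer, in the left part of the distribution.

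Levels were low in every group. In stimulated cultures, the 9 genes together summed to 63.6 and 38.4 FPKM in cKO libraries and to 67.8 and 44.0 FPKM in WT libraries. Unstimulated cultures had 11.4 and 8.94 FPKM in cKO and 7.03 and 10.3 FPKM in WT. In vivo, the sum was 17.6 and 25.1 FPKM in cKO and 30.2 and 27.0 FPKM in WT. The sum was thus higher in each stimulated library than in any unstimulated one, and lower in both cKO libraries than in both WT libraries in vivo.

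The order of the genes differed between the settings. In stimulated cKO cells Csf2 came first, with 79.4% of all genes at a lower mean level, and Il17a next, and neighbours from Csf2 to Il21 overlapped in range. In stimulated WT cells Csf2 was again first, with 85.3% of genes lower, and lay apart from Il4, Il13, Il5 and Ifng, which followed and whose ranges overlapped. Ifng led in vivo in both genotypes. There it was followed by Il13, Il17a and Il17f in cKO and by Il17a, Il17f and Il13 in WT. In unstimulated cells Il5, Ifng and Csf2 led in cKO and Ifng, Il5 and Csf2 in WT.

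Il3 was at or near 0 everywhere. It was listed at 0.08 and 0 FPKM in cKO in vivo and at 0 and 0.08 in WT in vivo. Stimulated cKO libraries had 0 and 0.0697 FPKM and stimulated WT libraries 0.296 and 0, and all 4 unstimulated libraries were listed at 0. It passed the filter for testing, a mean of at least 1 FPKM over the libraries of a table, in neither table. Il21 in vitro and Il5 in vivo also fell under it, which left 7 of the 9 genes tested in each table. A gene high in a single group can pass through that group, so counts over the tested genes describe these 7 and are not evidence by themselves.

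**Figure D2:**
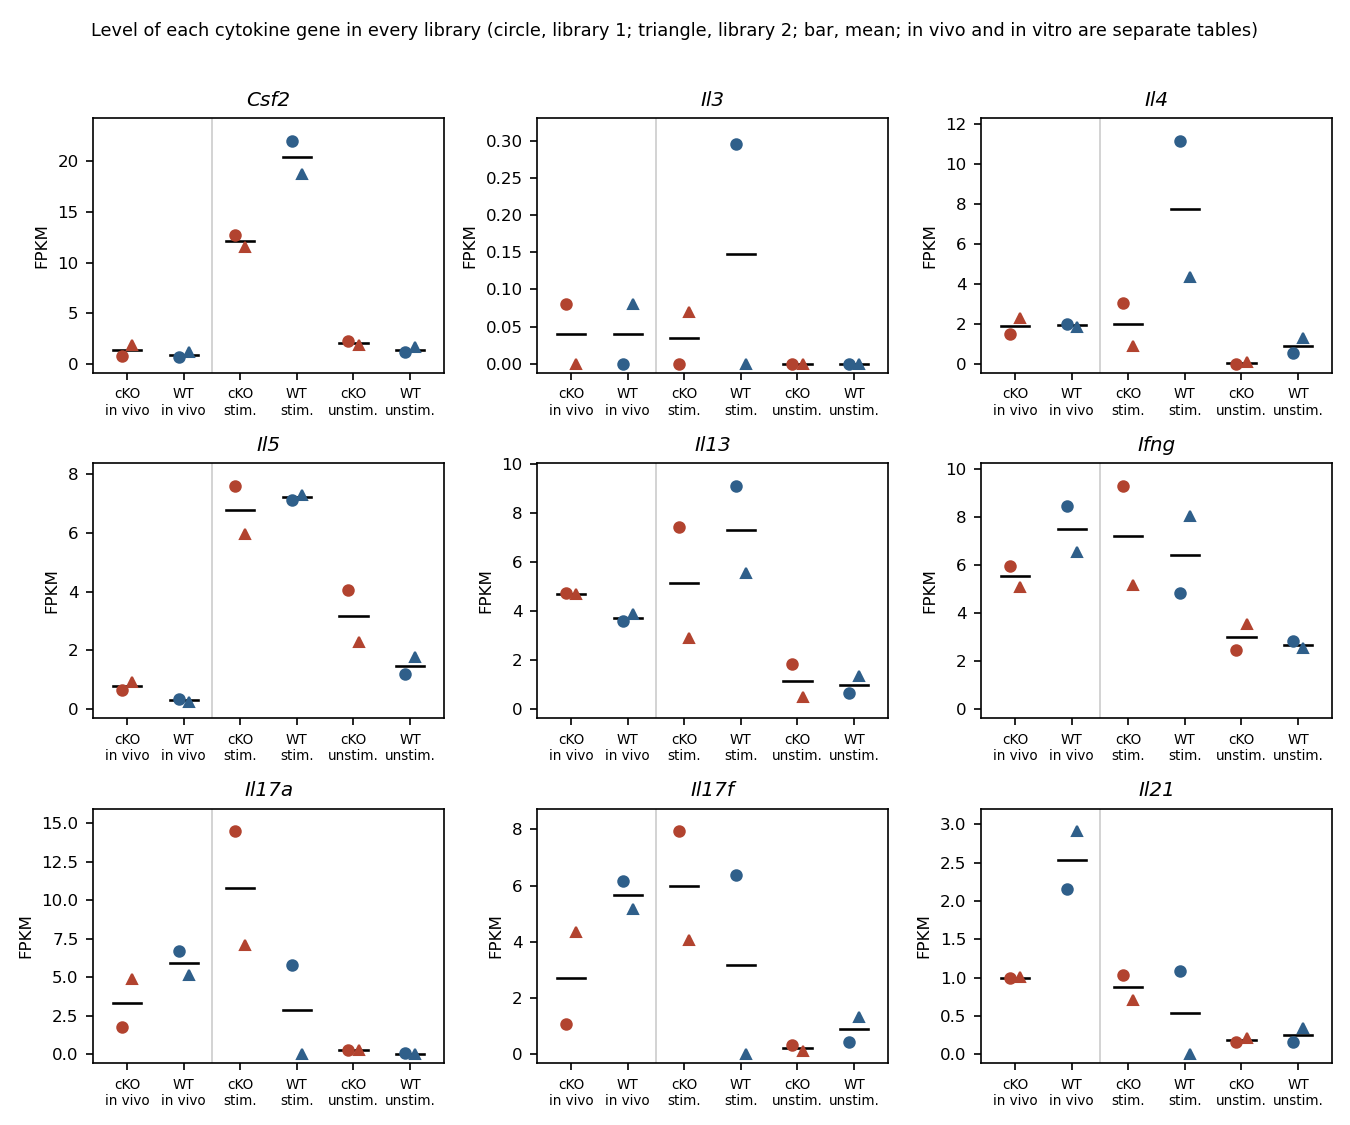
FPKM (y axes, linear, one scale per gene) of each of the 9 cytokine genes in every library of the 6 groups, with a circle for library 1, a triangle for library 2 and a bar for their mean. Csf2 stands at 11.5 to 22.0 FPKM in the 4 stimulated libraries and at or below 2.24 in the other 8, and Il17a, Il17f and Il21 are at 0 in stimulated WT replicate 2.

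The culture comparison asks which of these genes respond when Treg are activated, and whether they do so in both genotypes. Csf2 rose in each. Stimulated cKO libraries had 12.7 and 11.5 FPKM of Csf2, against 2.24 and 1.86 in unstimulated cKO. Stimulated WT libraries had 22.0 and 18.7 FPKM, against 1.15 and 1.64 in unstimulated WT. All stimulated libraries lay far above all unstimulated ones, and the groups did not overlap. The log2 fold change of FPKM + 1, the scale of every fold change here, was 2.11 in cKO (SE 0.22, limma adjusted p = 0.00461) and 3.16 in WT (SE 0.22, adjusted p = 0.000978). The call in WT held without any single library. The call in cKO was lost without unstimulated cKO replicate 2 (adjusted p = 0.0740), stimulated cKO replicate 1 (0.0757) or stimulated cKO replicate 2 (0.0620), and also without both cKO replicate 1 libraries (0.309).

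Il5, the growth and survival factor of eosinophils, was the other called gene and passed in WT. Stimulated WT libraries had 7.13 and 7.30 FPKM, against 1.20 and 1.77 in unstimulated WT (log2 fold change 1.74, SE 0.29, adjusted p = 0.0243). Stimulated cKO libraries had 7.61 and 5.96 FPKM, against 4.06 and 2.30 in unstimulated cKO (0.92, SE 0.29, adjusted p = 0.116). Stimulated levels overlapped between the genotypes and lay above every unstimulated value, and the unstimulated cKO values were above the unstimulated WT ones. The WT call was lost without stimulated WT replicate 2 (adjusted p = 0.101), unstimulated WT replicate 1 (0.0834), stimulated cKO replicate 1 (0.0667) or stimulated cKO replicate 2 (0.0662), the last 2 of which enter only the shared spread. It was also lost with no filter on low values (0.102). Of 19 alternative settings, these included, the WT call of Il5 was kept in 10 and lost in 9.

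Il4 and Il13, which drive IgE switching and alternative macrophage activation, were higher in both libraries of each stimulated group without passing the test. Il4 was at 3.05 and 0.909 FPKM in stimulated cKO libraries, against 0 and 0.10 in unstimulated cKO (1.41, SE 0.51, adjusted p = 0.166). In WT it was at 11.2 and 4.37 FPKM when stimulated, against 0.522 and 1.30 when unstimulated (2.11, SE 0.51, adjusted p = 0.0812). Replicate 1 was more than double replicate 2 in each stimulated genotype, and the groups did not overlap. Il13 was at 7.42 and 2.90 FPKM in stimulated cKO, against 1.83 and 0.503 in unstimulated cKO (1.47, SE 0.48, adjusted p = 0.126). In WT it was at 9.11 and 5.54 FPKM when stimulated, against 0.653 and 1.35 when unstimulated (2.04, SE 0.48, adjusted p = 0.0749). The Il13 groups did not overlap either, and replicate 1 was again the higher stimulated library in both genotypes. The ratio of Il13 to Il4 was 2.44 and 3.19 in the stimulated cKO libraries, against 0.814 and 1.27 in the stimulated WT libraries.

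Ifng, the macrophage-activating cytokine of Th1 cells, showed nearly the same difference in the genotypes. It was at 9.32 and 5.16 FPKM in stimulated cKO libraries, against 2.48 and 3.53 in unstimulated cKO (1.01, SE 0.34, adjusted p = 0.137). Stimulated WT libraries had 4.83 and 8.07 FPKM, against 2.82 and 2.57 in unstimulated WT (0.98, SE 0.34, adjusted p = 0.182). Both stimulated groups lay above their unstimulated ones without overlap, and they overlapped each other.

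Il17a and Il17f, whose products recruit neutrophils, were low before stimulation, and the stimulated WT libraries disagreed. Il17a was at 14.5 and 7.10 FPKM in stimulated cKO, against 0.292 and 0.287 in unstimulated cKO (3.12, SE 0.79, adjusted p = 0.0689). In WT it was at 5.78 and 0 FPKM when stimulated, against 0.0717 and 0 when unstimulated (1.33, SE 0.79, adjusted p = 0.396). Stimulated WT replicate 1 thus came near the lower cKO library, and replicate 2 was listed at 0. Il17f was at 7.93 and 4.05 FPKM in stimulated cKO, against 0.341 and 0.137 in unstimulated cKO (2.44, SE 0.83, adjusted p = 0.138). In WT it was at 6.38 and 0 FPKM when stimulated, against 0.445 and 1.35 when unstimulated (0.56, SE 0.83, adjusted p = 0.753). Without stimulated WT replicate 2, Il17a was called in cKO (3.12, adjusted p = 0.00937) and in WT (2.71, adjusted p = 0.0478), and Il17f in cKO (2.44, adjusted p = 0.0224) but not in WT (2.00, adjusted p = 0.138). In cKO the fold changes were the same as with it. Without stimulated WT replicate 1 the WT fold change was -0.05 for Il17a and -0.88 for Il17f, and the cKO ones were again called (adjusted p = 0.00995 for Il17a and 0.0240 for Il17f).

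Il21, which supports germinal centre B cells, was at 1.04 and 0.708 FPKM in stimulated cKO, against 0.159 and 0.216 in unstimulated cKO. In WT it was at 1.09 and 0 FPKM when stimulated, against 0.166 and 0.345 when unstimulated. It was near 0 in unstimulated cells and between 0.708 and 1.09 FPKM in the 3 stimulated libraries that were not at 0.

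By limma, 1 of the 7 tested genes was called in cKO, where 4.58% of all 10710 tested genes were, and 2 of 7 in WT, where 2.43% were. The median fold change of the 7 was 1.47 in cKO and 1.74 in WT, against -0.14 and -0.04 over all tested genes, and all 7 had a value above 0 in each genotype. Stimulated and unstimulated libraries did not overlap for 7 of 7 genes in cKO, where 20.7% of tested genes were higher without overlap, and for 5 of 7 in WT, where 18.8% were.

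**Figure D3:**
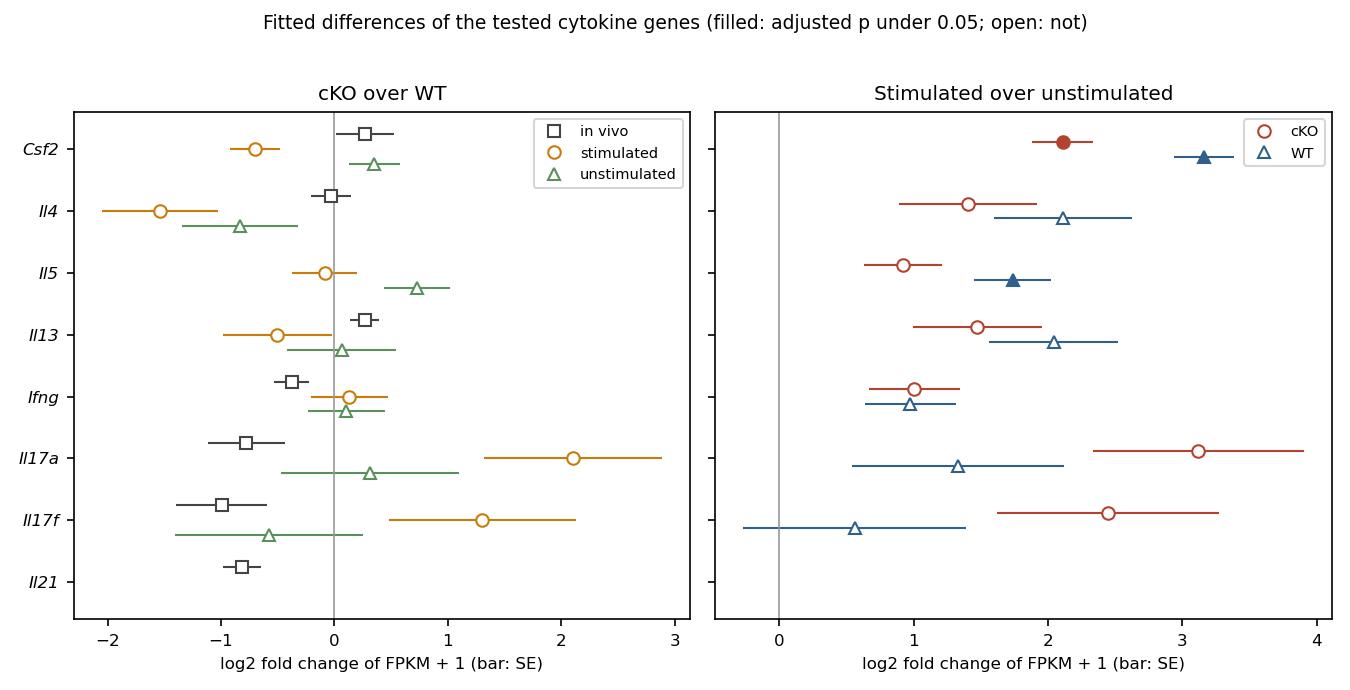
Fitted log2 fold changes of FPKM + 1 with their SE (x axes) for the tested cytokine genes (y axis), cKO over WT on the left (squares in vivo, circles stimulated, triangles unstimulated) and stimulated over unstimulated on the right (circles cKO, triangles WT), filled where the adjusted p is under 0.05. On the right the filled points are Csf2 at 2.11 in cKO and 3.16 in WT and Il5 at 1.74 in WT, and on the left every point is open.

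The genes that lie between and beside the cytokines on chromosome 11 had values nearer 0. Rad50, between Il13 and Il5, had log2 fold changes of 0.16 in cKO and 0.29 in WT, and Kif3a, a kinesin motor gene beside Il4, of 0.03 and -0.20. The interferon response factor gene Irf1, past Il5, had 0.35 in cKO and 0.63 in WT, and the septin gene Septin8 -0.32 and -0.53. By limma 0 of these 4 were called in either genotype (adjusted p from 0.302 to 0.962). P4ha2 and Acsl6, near Csf2 and Il3, were under the filter. Beside Ifng on chromosome 10, Il22, a cytokine gene that acts on epithelia and can share reads with a copy, rose in both genotypes by far more than Ifng (7.22 in cKO and 6.58 in WT). Il2, the T cell growth factor gene that neighbours Il21 on chromosome 3, was at 2.82 and 3.03 FPKM in stimulated cKO, against 0.278 and 0 in unstimulated cKO, and was not called. In WT it was at 2.66 and 0 FPKM when stimulated, against 0.231 and 0 when unstimulated, with both zeros in replicate 2.

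**Figure D4:**
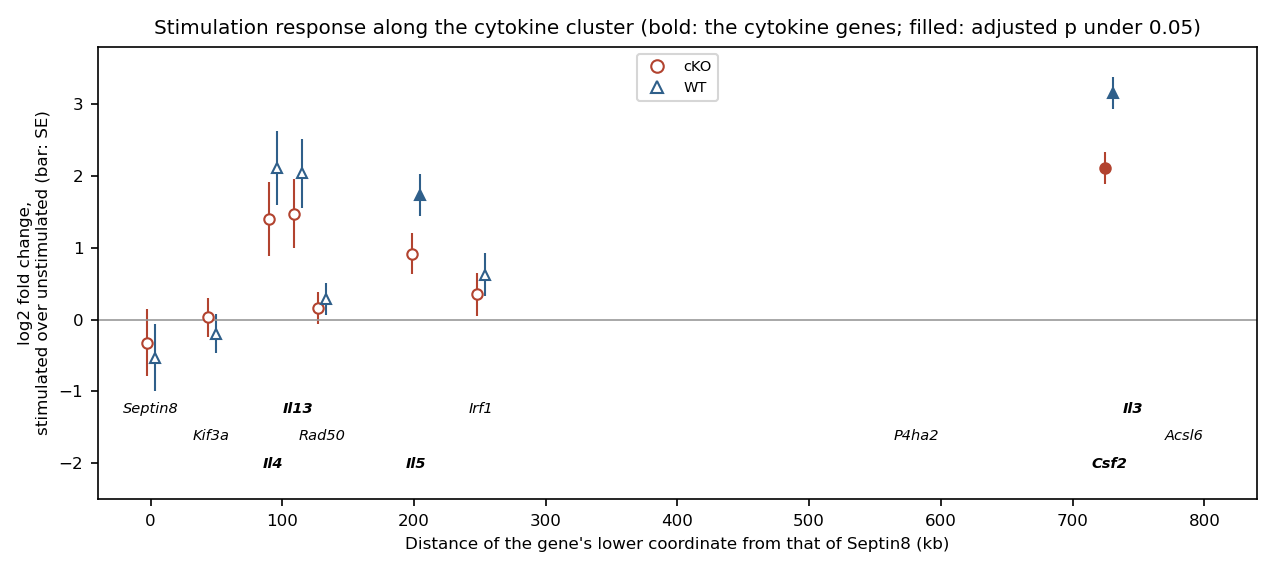
Log2 fold change of stimulated over unstimulated cells with its SE (y axis) along the cytokine cluster of chromosome 11, by distance in kb from the lower coordinate of Septin8 (x axis), with circles for cKO, triangles for WT and filled symbols for an adjusted p under 0.05. The cytokine genes (bold names) lie between 0.92 and 3.16, and the 4 tested other genes between -0.53 and 0.63; P4ha2, Il3 and Acsl6 carry no symbol because they were under the filter.

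Whether the cytokine genes differ between cKO and WT after stimulation was asked next. By limma 0 of 7 were called, where 0.0187% of all genes (2 of 10710) were. An unadjusted p under 0.05 was reached by 3 of the 7, Csf2, Il4 and Il17a, and by 1508 of all genes. Csf2 was lower in both cKO libraries, at 12.1 ± 0.846 FPKM in cKO and 20.4 ± 2.35 in WT (SD, n = 2 each), which is -0.70 as a log2 fold change (SE 0.22, limma adjusted p = 0.238). Il4 was lower in both cKO libraries as well, at 1.98 ± 1.51 FPKM in cKO and 7.78 ± 4.82 in WT (-1.54, SE 0.51, adjusted p = 0.247). The Il4 libraries came close, since the higher cKO library had 3.05 FPKM and the lower WT library 4.37. Il17a was higher in both cKO libraries, at 10.8 ± 5.22 FPKM in cKO and 2.89 ± 4.09 in WT (2.11, SE 0.79, adjusted p = 0.294), but the WT value rests on the library listed at 0. Without stimulated WT replicate 2 the fold change was 0.72 (adjusted p = 0.583), and without stimulated WT replicate 1 it was 3.49 (adjusted p = 0.0315). Il17f had 1.31 (adjusted p = 0.509), -0.14 without stimulated WT replicate 2 and 2.75 (adjusted p = 0.0492) without stimulated WT replicate 1.

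Il5, Il13 and Ifng overlapped between the genotypes, with fold changes of -0.09 (adjusted p = 0.916), -0.50 (adjusted p = 0.671) and 0.13 (adjusted p = 0.889). Non-overlapping groups occurred for 1 of 7 genes higher in cKO, Il17a, and 2 of 7 lower, Csf2 and Il4, where 18.5% and 29.8% of all genes did. The median of the 7 was -0.09, against -0.05 over all genes. Markers of other cell types differed between these libraries. The 8 B cell markers summed to 162 and 162 FPKM in stimulated cKO, against 51.9 and 42.2 in stimulated WT, and the 8 myeloid markers to 93.7 and 38.7, against 9.85 and 7.15. The 8 CD8 T and NK cell markers, genes of cells that can make Ifng, summed to 30.3 and 25.9 FPKM in stimulated cKO and to 20.1 and 12.5 in stimulated WT. The largest term was Nkg7, at 20.0 and 17.2 FPKM in stimulated cKO and 6.96 and 10.4 in stimulated WT. The 4 markers of gamma delta T cells and ILC3 found in the table (Sox13, Il23r, and Blk and Ncr1, which the other lists also hold), cells that can make IL-17, summed to 27.1 and 18.6 FPKM in stimulated cKO and to 14.2 and 14.6 in stimulated WT. Of these Blk was at 16.4 and 12.9 FPKM, against 5.06 and 8.85, while Il23r (8.30 and 5.03, against 6.30 and 4.46) and Sox13 (1.90 and 0.277, against 2.28 and 1.23) overlapped between the genotypes. Their part in the values of the cytokine genes was not tested. In bulk RNA, fewer producing cells and less RNA per cell cannot be told apart.

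In unstimulated cells the cytokine genes were at 4.06 FPKM or less. By limma 0 of 7 were called between the genotypes, where 0.0747% of all genes (8 of 10710) were, and Il5 was the 1 gene of the 7 with an unadjusted p under 0.05, against 703 of all genes. Il5 was at 4.06 and 2.30 FPKM in cKO, against 1.20 and 1.77 in WT, without overlap (0.73, SE 0.29, adjusted p = 0.711). Csf2 was at 2.24 and 1.86 FPKM in cKO, against 1.15 and 1.64 in WT, also without overlap (0.35, SE 0.22, adjusted p = 0.882). Il4 lay the other way, at 0 and 0.10 FPKM in cKO and 0.522 and 1.30 in WT (-0.83, SE 0.51, adjusted p = 0.875). Ifng (0.11) and Il13 (0.06) overlapped between the genotypes, and Il17a and Il17f were near 0. Without overlap, 3 of 7 were higher in cKO (Csf2, Il5 and Il17a) and 2 lower (Il4 and Il17f), where 17.8% and 16.6% of all genes were. The B cell markers summed to 188 and 207 FPKM in unstimulated cKO, against 35.2 and 37.5 in WT, and the mast cell and basophil markers, of cells that can make IL-4 and IL-13, to 24.1 and 9.94, against 9.70 and 9.67. Kit was the largest term of each of these sums, at 15.9 and 9.80 FPKM in unstimulated cKO and 9.35 and 9.67 in unstimulated WT. Of the same list, Mcpt8, Ms4a2 and Prss34 were at 0 in all 8 in vitro libraries. Cpa3, Tpsb2 and Fcer1a were highest in cKO replicate 1. They were at 3.60, 4.06 and 0.450 FPKM there when unstimulated, and at 1.94, 3.32 and 0.344 when stimulated. Cd200r3 was at most 0.114 FPKM in culture.

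The interaction of genotype and stimulation tests whether the response itself differed. Csf2 had -1.05 (SE 0.32, unadjusted p = 0.0108, limma adjusted p = 0.999), that is, 2.11 in cKO against 3.16 in WT. It was lower in unstimulated WT libraries and higher in stimulated WT libraries than in the matching cKO ones, as the single values show. Il5 had -0.82 (SE 0.41), Il4 -0.71 (SE 0.72) and Il13 -0.57 (SE 0.68), while Ifng had 0.03, Il17a 1.79 (SE 1.11) and Il17f 1.88 (SE 1.17). The 4 tested genes of the chromosome 11 cluster were thus below 0, as was the median over all tested genes (-0.08). Without stimulated WT replicate 2 the interaction was 0.41 for Il17a and 0.44 for Il17f, and without stimulated WT replicate 1 it was 3.17 and 3.32. With a pseudocount of 0.1 FPKM the value for Il4 was 0.73, so Il4 then lay on the other side. By limma 0 of 7 genes and 0% of 10710 were called. At an unadjusted p under 0.05 there were 1 of the 7, Csf2, and 380 of all genes. The ratio of Csf2 to Il5 was 1.67 and 1.94 in stimulated cKO libraries, against 3.09 and 2.57 in stimulated WT libraries, and 0.552 and 0.808 in unstimulated cKO, against 0.960 and 0.931 in unstimulated WT.

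The in vivo comparison asks how the genotypes differ in the animal. By limma 0 of the 7 tested genes were called, where 0.374% of all genes (39 of 10415) were, and 2 of the 7, Il21 and Il17f, had an unadjusted p under 0.05, against 1350 of all genes. Il21 came nearest. It was at 0.99 and 1.01 FPKM in cKO, against 2.16 and 2.91 in WT, with both cKO libraries below both WT libraries (-0.81, SE 0.17, unadjusted p = 0.00218, adjusted p = 0.118). Its fold change was -0.82 without the second cKO library in table order and -0.81 without the first. Either fit leaves 1 cKO library, so only the fold change is given.

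Il17a was at 1.75 and 4.87 FPKM in cKO, against 6.71 and 5.14 in WT (-0.78, SE 0.34, adjusted p = 0.399). Il17f was at 1.08 and 4.36 FPKM in cKO, against 6.17 and 5.16 in WT (-0.99, SE 0.40, adjusted p = 0.372). For both genes the first cKO library was far below the other 3, and the second lay just under the WT range. A pair of other Th17 genes, picked with their values known, is given beside them. Il23r, which encodes the receptor that sustains Th17 cells, was at 0.91 and 2.22 FPKM in cKO, against 2.48 and 2.40 in WT, and Il22 at 1.65 and 4.49, against 7.67 and 4.90. The first cKO library was the lowest for all 4 genes, and the second lay close to the WT range. The first cKO library was also the lowest for genes of other lists, such as all 8 B cell markers. Irf4 was at 20.4 FPKM there, against 30.9 in the second cKO library and 35.7 and 33.1 in WT. It was the highest for Stat3, at 277.9, against 243.3 in the second cKO library and 235.4 and 234.5 in WT. The share of all genes lowest in this library was not counted. Without the second cKO library the fold change was -1.32 for Il17a and -1.68 for Il17f. Without the first cKO library it was -0.23 for Il17a and -0.31 for Il17f. Either fit leaves 1 cKO library, so only the fold changes are given.

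**Figure D5:**
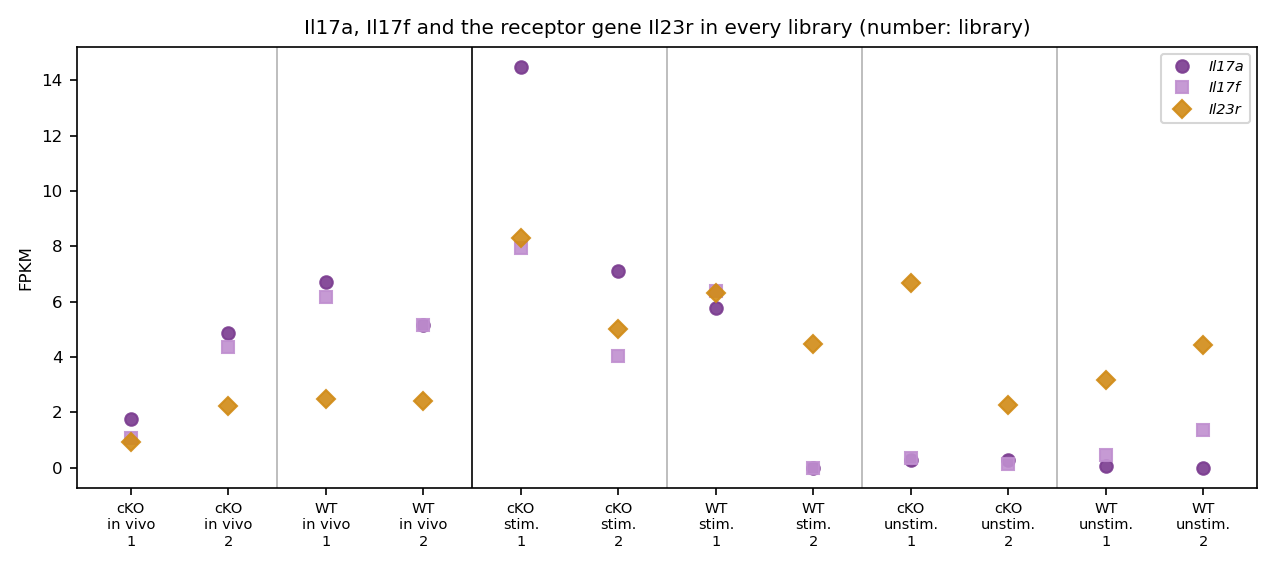
FPKM (y axis) of Il17a, Il17f and Il23r in each of the 12 libraries (x axis, the number is the library; in vivo and in vitro are separate tables). In vivo the first cKO library is the lowest for all 3 genes, and in stimulated WT replicate 2 Il17a and Il17f are at 0 while Il23r is at 4.46 FPKM.

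Ifng was at 5.96 and 5.11 FPKM in cKO in vivo, against 8.49 and 6.57 in WT, without overlap (-0.38, SE 0.16, adjusted p = 0.387). Il13 lay on the other side, at 4.72 and 4.68 FPKM in cKO, against 3.6 and 3.87 in WT, also without overlap (0.27, SE 0.13, adjusted p = 0.432). Il5, under the filter, was at 0.66 and 0.91 FPKM in cKO, against 0.34 and 0.25 in WT. Il4 (1.52 and 2.28 FPKM in cKO, 2.01 and 1.87 in WT) and Csf2 (0.81 and 1.91 in cKO, 0.70 and 1.13 in WT) overlapped. Of the 7 tested genes, 1 was higher in cKO without overlap (Il13) and 4 were lower (Ifng, Il17a, Il17f and Il21), where 21.5% and 25.8% of all genes were. The median of the 7 was -0.38, against -0.02 over all genes. B cell markers summed to 18.8 and 27.9 FPKM in cKO, against 56.9 and 74.2 in WT, and CD8 T and NK cell markers to 76.0 and 84.2, against 73.9 and 86.0. The largest term of the latter was Nkg7, at 29.5 and 55.3 FPKM in cKO and 28.7 and 30.3 in WT. Of the 7 CD8 T and NK cell markers tested in vivo, 1 had a fold change above 0, and their median was -0.30. By limma 0 of these were called. The gamma delta T cell and ILC3 markers summed to 3.39 and 6.68 FPKM in cKO and to 6.39 and 6.83 in WT, with the first cKO library the lowest; Il23r, given above, is in that sum. The 6 ILC2 markers, of cells that can make IL-5 and IL-13, summed to 74.15 and 125.0 FPKM in cKO and to 63.8 and 73.75 in WT, with Areg, which Treg also express, as the largest term in each library. The part of these cells in the cytokine values was not tested.

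The receptors, signalling genes and transcription factors of these cytokines were counted beside them. Of all 10710 genes tested in vitro, stimulation called 4.58% in cKO and 2.43% in WT. Between the genotypes, an unadjusted p under 0.05 was reached by 1508 of these when stimulated and 703 when unstimulated. In vivo it was reached by 1350 of 10415. Of 10 tested receptor genes in vitro, 1 rose and 1 fell in cKO after stimulation and 1 rose in WT. Il4ra, the receptor chain shared by IL-4 and IL-13, rose to 131 ± 1.45 FPKM in stimulated cKO, against 68.6 ± 1.48 in unstimulated cKO (0.93, adjusted p = 0.00867), and to 153 ± 3.38 in stimulated WT, against 78.9 ± 0.716 (0.94, adjusted p = 0.00903). Il21r, the receptor of IL-21, fell in cKO to 60.4 ± 2.15 FPKM, against 103.6 ± 6.84 (-0.77, adjusted p = 0.0328). In WT it was at 83.5 and 75.5 FPKM when stimulated, against 101 and 123 when unstimulated, also lower without overlap but not called. Between the genotypes limma called 0 of 10 receptors in either culture condition and 0 of 11 in vivo. At an unadjusted p under 0.05 there were 4 stimulated, 2 unstimulated and 2 in vivo. After stimulation the 2 chains of the interferon gamma receptor had the smallest p, with fold changes of -0.67 for Ifngr1 (adjusted p = 0.232) and 0.50 for Ifngr2 (adjusted p = 0.208).

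Of 23 tested transcription factor genes in vitro, 3 rose and 2 fell in stimulated cKO and 2 rose and 1 fell in stimulated WT. Irf4, needed for effector differentiation, rose by 1.75 in cKO and 1.74 in WT, and the AP-1 gene Jun by 1.02 and 1.43. Bcl6, the repressor that drives the follicular programme, fell by 2.50 in cKO and by 2.65 in WT. In cKO Stat4, a transducer of IL-12, rose by 0.67 (adjusted p = 0.0404) and Stat5a, a transducer of IL-2, fell by 0.77 (adjusted p = 0.0495). In WT Stat4 was at 98.8 and 108 FPKM when stimulated, against 71.1 and 73.6 when unstimulated. Stat5a was at 201 and 204 FPKM in stimulated WT, against 229 and 226 in unstimulated WT. Both moved the same way as in cKO without overlap, but were not called. The lineage factors, named with their values known, did not pass: Gata3 had 0.69 in cKO (adjusted p = 0.0558) and 0.54 in WT (0.134), and Tbx21, which encodes T-bet, 0.97 (0.106) and 0.89 (0.164). Between the genotypes limma called 0 of 23 in either culture condition and 0 of 24 in vivo. At an unadjusted p under 0.05 there were 6 stimulated, 3 unstimulated and 7 in vivo. The smallest p were those of Junb (-0.83, adjusted p = 0.120) and Stat5a (-0.69, 0.166) after stimulation and of Fos (-0.85, 0.0988) and Stat5b (0.62, 0.116) in vivo.

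Of 18 other cytokine genes tested in vitro, 3 rose in each genotype after stimulation. Il22 reached 359 ± 204 FPKM in stimulated cKO and 162 ± 47.1 in stimulated WT, above every one of the 9 cytokine genes. Lta, which encodes lymphotoxin alpha, rose by 2.58 in cKO and 2.43 in WT, and Osm, the oncostatin M gene, by 1.11 (adjusted p = 0.0492) and 1.53 (adjusted p = 0.0224). Between the genotypes 1 of 18 was called in unstimulated cells, Il10, which was lower in cKO (-2.40, adjusted p = 0.0189), with 0 of 18 called by limma after stimulation and 0 of 16 in vivo (3 and 6 at an unadjusted p under 0.05). Il10 was also lower in cKO without overlap in those comparisons. It was at 13.1 and 7.59 FPKM in stimulated cKO, against 35.4 and 33.4 in stimulated WT. In vivo it was at 42.8 and 44.2 FPKM in cKO, against 69.5 and 80.6 in WT. Of 10 kinases, adaptors and feedback inhibitors, 3 rose in each genotype, Socs1 (2.79 in cKO and 2.98 in WT), Traf6 (1.40 and 1.69) and Cish (1.35 and 1.65). Of 11 genes known to respond to interferon gamma, IL-4, IL-13 or IL-17, Gbp5, a guanylate binding protein gene induced by interferon gamma, rose by 1.61 in cKO and 1.56 in WT, and Gbp2 by 0.90 in cKO. The calls of Bcl6, Il22, Lta and Socs1 held without any single library in both genotypes. Those of Traf6, Cish and Gbp5 did so in WT. In cKO the calls of Il4ra, Il21r, Stat4, Irf4, Jun, Traf6, Cish and Gbp2 were lost without any one of the 4 cKO libraries, and that of Gbp5 without 3 of them. That of Stat5a was lost without any one of the 8 libraries, and that of Osm without any cKO library and without unstimulated WT replicate 2. In WT those of Il4ra, Irf4, Jun and Osm were lost without stimulated WT replicate 2, those of Jun and Osm also without unstimulated WT replicate 1, and that of Osm without any other unstimulated library. The Il10 call was lost without any one of the 4 unstimulated libraries.

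The genes whose profile over the 8 in vitro libraries came closest to each cytokine gene were ranked by the mean absolute difference of centred log2(FPKM + 1). For Csf2 they were Ezh2 (0.228), the methyltransferase of PRC2, Socs1 (0.229) and Kpna1 (0.251). For Il5 they were Srm (0.143), Parp14 (0.165) and Txnrd1 (0.178), and for Ifng Atp1b1 (0.162), Tlr1 (0.167) and Gpr18 (0.168). Lif, a cytokine gene, was nearest to Il13 (0.20), followed by Nabp1 (0.320) and Srm (0.325). Il4 had Mir6974 (0.328), Eif3j1 (0.339) and Cish (0.385). Il17f was the nearest gene to Il17a (0.436), followed by Serpina3f (0.479) and Zdhhc23 (0.587), and Serpina3f (0.392), Il17a and Tnfsf14 (0.439) were nearest to Il17f.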

How the data were processed

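The authors deposited their values as FPKM in 2 tables, for the 4 in vivo and the 8 in vitro libraries. HISAT2 2.2.1, StringTie 2.1.1 and the builds mm10 and hg19 appear, per the submitters' processing notes, without a role, and the sources used here do not say which tool produced the tables. In vivo columns carry no replicate number, so first and second library follow table order. In vivo genes were matched to symbols by Entrez number (16196 of 16232), and 23204 of 24421 in vitro names are RefSeq symbols. A further 4 per-sample columns of no sample were not used. Low FPKM show no steps of single reads, so the depth cannot be recovered and no counting error is given.

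Values were tested as log2(FPKM + 1), each table on its own, using limma 3.58.1 (R 4.3.3, eBayes, intensity trend, two-sided). Genes had to average at least 1 FPKM, which left 10415 in vivo and 10710 in vitro, where the 8 libraries shared 1 model with 4 groups. A call is an adjusted p (Benjamini-Hochberg, all tested genes) under 0.05. Fold changes on this scale understate those of low genes. The steps were tested on simulated data. Members, lists and alternatives were chosen with earlier results of these data known. From each list the text names up to 4 called genes by p, or the 2 smallest p as values. Gata3, Tbx21, Il23r, further called genes and single marker genes were added with values known. An item of the lists is not reported here. Promoter windows come from RefSeq (GRCm38.p6). Alternatives were a pseudocount of 0.1 FPKM, no filter, median-of-ratios scaling, haemoglobin genes removed, replicate blocks, only the 4 samples compared, and libraries left out.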

Additional observations from a re-analysis of the deposited data

Results flagged for a closer look

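Il17a lay on opposite sides between the genotypes in vivo and in vitro. In vivo both cKO libraries were below both WT libraries (log2 fold change -0.78), whereas in culture both cKO libraries were above both WT libraries, with 0.32 in unstimulated and 2.11 in stimulated cells. The unstimulated levels were at most 0.292 FPKM, and 1 stimulated WT library was listed at 0. The difference was not tested, because the tables were normalised separately. Il17a was called in none of these comparisons (limma adjusted p = 0.399 in vivo, 0.98 unstimulated and 0.294 stimulated). Of all tested genes 25.8% were lower in cKO without overlap in vivo. In culture 17.8% were higher when unstimulated and 18.5% when stimulated. As given above, the in vivo value was nearer 0 without the first cKO library, and the stimulated one without stimulated WT replicate 2.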

How the results depend on the processing

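Without single libraries the counts of called genes ranged from 17 to 1994 in vivo (39 with all libraries), 0 to 197 for stimulated cKO over WT (2), 0 to 28 for unstimulated cKO over WT (8), 12 to 660 for stimulation in cKO (490), 95 to 966 for stimulation in WT (260) and 0 to 3 for the interaction (0). Called cytokine genes ranged from 0 to 3 in vivo, 0 to 2 for stimulated cKO over WT, 0 to 3 for stimulation in cKO and 1 to 2 for stimulation in WT. With no filter the counts of all genes were 0 in vivo, 0 stimulated, 1 unstimulated, 185 for stimulation in cKO and 92 in WT, where 1 cytokine gene was called. Median-of-ratios scaling gave 74 in vivo, moved the median of stimulation in cKO by 0.12 and its split from 45.5% to 68.1% higher. Haemoglobin removal gave 4 stimulated, 2 higher and 2 lower in place of 2 and 0, and 14 unstimulated. A pseudocount of 0.1 FPKM gave 0 stimulated. Without both WT replicate 2 libraries there were 7 stimulated, 52 unstimulated, 5 for the interaction and 1932 for stimulation in cKO with 3 cytokine genes. Without both cKO replicate 1 libraries there were 0 stimulated, 0 unstimulated, 1 for stimulation in cKO with 0 cytokine genes and 32 in WT with 1. Only the 4 samples compared gave 0 stimulated, 1918 for stimulation in cKO with 3 cytokine genes and 34 in WT with 1. Leaving out stimulated WT replicate 2 and stimulated cKO replicate 1 together, chosen after seeing the data, gave 0 stimulated, 1 for stimulation in cKO with 0 cytokine genes and 19 in WT with 1.

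Replicate numbers pair the libraries by number alone. Deviations of same-numbered libraries correlated at 0.42 within cKO and 0.239 within WT, and at -0.138 to 0.0577 between genotypes. The replicate block gave 0 genes for stimulated cKO over WT. For stimulation in cKO it gave 449 of 10710 genes, with 2 cytokine genes. With the WT numbers crossed, added after seeing the data, it gave 6 stimulated and 14 unstimulated. A replicate block within each genotype, also added, gave 839 genes with 3 cytokine genes for stimulation in cKO and 468 in WT.

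Fold changes that turned sign were all of uncalled genes. Between stimulated genotypes Ifng had -0.24 without both cKO replicate 1 libraries, and Il17f -0.14 without both WT replicate 2 libraries and -0.55 with the pair left out together. Unstimulated Il13 had -0.39 without both cKO replicate 1 libraries. In the interaction Ifng had -0.53 without these and -0.025 with the pair left out, Il17a -0.059 with the pair left out and Il4 0.73 with the smaller pseudocount, which also gave -0.14 for Il17f stimulation in WT. Without single libraries the ranges were -0.22 to 0.16 for Il4 in vivo, -0.39 to 0.52 for unstimulated Il13, -0.085 to 0.30 for unstimulated Ifng, -0.24 to 0.067 for stimulated Il5, -1.06 to 0.051 for stimulated Il13, -0.24 to 0.50 for stimulated Ifng and -0.14 to 2.75 for stimulated Il17f. They were -0.050 to 2.71 and -0.88 to 2.00 for stimulation of Il17a and Il17f in WT and -0.34 to 0.40 for the Ifng interaction. Where a left-out library leaves 1 sample, that sample is assumed to vary like the others. The causes were not tested.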
